A study of Mus musculus with 12 samples.

Results

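Matricellular proteins and matrix glycoproteins are secreted, non-collagen proteins of the extracellular matrix. A set of 10 of their genes was taken by name: Fn1, Fbln2, Sparc, Postn, Thbs1, Thbs2, Tnc, Emilin2, Dcn and Lum, out of 17335 gene identifiers in the count tables of 2 mouse cell lines. The genes were matched by symbol to Ensembl identifiers. Of the 10 genes, 9 had counts in PSC4 and 7 in KPC4, and Lum was not analysed here in either line, nor were Postn and Dcn in KPC4. A filter on low counts passed 9 of them for testing in PSC4 and 6 in KPC4, where it left out Thbs2.

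PSC4 is a line of murine pancreatic stellate cells, the stromal cells that become matrix-producing fibroblasts in pancreatic disease, and KPC4 is a line of murine pancreatic cancer cells. RNA of 12 samples was sequenced, 3 labelled as biological replicates in each of 4 groups. For PSC4 Control-SU and PSC4 Gem-SU, KPC4 cells received vehicle or 10 µM gemcitabine, a nucleoside analogue used in chemotherapy, for 6 h, were washed, and conditioned starvation medium for 14 h, in which PSC4 cells were then kept for 24 h. For KPC4 Control-PSC-SU and KPC4 Gem-PSC-SU, PSC4 cells spent 6 h in Control-SU or Gem-SU, were washed, and conditioned fresh starvation medium for 18 h, in which KPC4 cells were kept for 24 h. Each recipient is a single cell line in culture, no group received the drug alone, and drug exposure of the donor cells cannot be told apart from any drug carried in the medium. The labels do not say whether replicates came from separate cultures, so that p-values measure the spread between these libraries.

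Fibronectin and fibulins form fibrils and networks that cells grip through integrins. Matricellular proteins such as SPARC, periostin, thrombospondins and tenascin-C add little to the structure of the matrix but change how cells adhere to it, move in it and read growth factors bound to it. Decorin and lumican are small leucine-rich proteoglycans that coat collagen fibrils. In pancreatic cancer much of the dense stroma is laid down by activated stellate cells and fibroblasts.

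PSC4 libraries held 29559414 to 38138356 counts in total and KPC4 libraries 26354328 to 34744150. All 12 stellate and fibroblast markers chosen as a check of the labels, such as Col1a1, Pdgfrb and Thy1, had over 3 counts in every PSC4 library, and 11 of 12 epithelial markers, such as Epcam, Cdh1 and Krt8, did so in every KPC4 library. The epithelial list summed to between 15.9 and 22.2 CPM (counts scaled to library size) in PSC4 against 6043 to 7514 CPM in KPC4. Leukocyte markers summed to at most 6.03 CPM and endothelial markers to at most 4.85 CPM in any library. Of the stellate and fibroblast list, 5 genes had over 3 counts in every KPC4 library and the list summed to between 1917 and 2870 CPM there, while Pdgfrb, Thy1, Des and Pdpn were not analysed here in KPC4, nor were Epcam, Cdh1, Cldn3, Cldn4 and Esrp1 in PSC4. Vim, named after its values were seen, made up most of the KPC4 sum of the stellate and fibroblast list. Its mean was 2588 CPM in KPC4 controls and 2053 CPM with Gem-PSC-SU, against 1671 CPM in PSC4 controls. As a sum, the stellate and fibroblast list was higher in control PSC4 libraries than in any KPC4 library, and the epithelial list higher in KPC4.

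The first comparison asked how the stellate cells' matrix genes differed between the supernatant of drug-treated and of vehicle-treated tumour cells. Of the 9 genes tested in PSC4, 1 rose with Gem-SU, namely Tnc, and 5 fell, namely Emilin2, Dcn, Postn, Thbs2 and Sparc, at a threshold of 0.05 on the p-value of the quasi-likelihood test of edgeR, adjusted by the Benjamini-Hochberg method over all 13347 genes tested. Fn1, Fbln2 and Thbs1 did not pass. Over all genes tested, 46.3% passed, 24.3% higher and 22% lower, so that many genes of any kind moved in this comparison. The same 6 genes passed under DESeq2, where 51.1% of all genes did, and with the replicate number as a term of the edgeR fit, where 54.4% did. The median log2 fold change was -1.01 over the 9 genes and -0.0032 over all genes tested. Without PSC4 Gem-SU replicate 2 the number of genes passing among all tested fell from 6177 to 4061, and the number among these 9 was then 5. The groups did not overlap for 6 of the 9 genes, nor did they for 56.4% of all genes tested (29.3% higher and 27.1% lower with Gem-SU). In the following, CPM is relative to the library total multiplied by its TMM factor, an estimate of effective depth made within each line, and values are listed for replicates 1, 2 and 3.

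**Figure D1:**
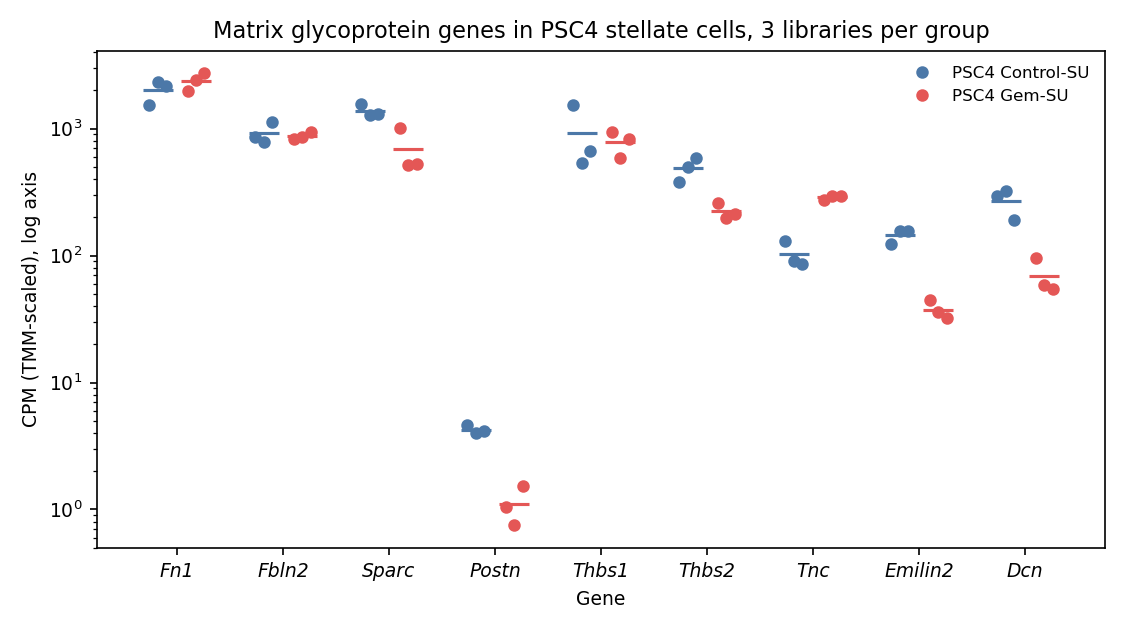
CPM of the 9 genes in PSC4 on a log axis, with a point per library and a line at the group mean. Tnc is the only one whose Gem-SU points (273 to 296 CPM) lie above all control points (85.9 to 130 CPM), and Emilin2, Dcn, Postn, Thbs2 and Sparc lie below, while the groups of Fn1, Fbln2 and Thbs1 overlap.

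Tenascin-C is a large matricellular glycoprotein that is scarce in most adult tissue and abundant in wounds and tumour stroma. Its gene, Tnc (ENSMUSG00000028364), stood at 130, 90.8 and 85.9 CPM with Control-SU and at 273, 296 and 292 CPM with Gem-SU. All Gem-SU libraries lay above all control libraries, and they lay close together, with a coefficient of variation of 4.32% against 23.4% in controls. The rise was 2.81-fold, a log2 fold change of 1.49 (SE 0.19, edgeR adjusted p = 4.78e-04).

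The gene with the smallest p of the set was Emilin2 (ENSMUSG00000024053), which encodes a glycoprotein of the elastin-associated EMILIN family. It was at 124, 157 and 157 CPM in controls and at 44.9, 35.7 and 32.1 CPM with Gem-SU. The groups were far apart, and the fall was 3.89-fold, a log2 fold change of -1.96 (SE 0.18, edgeR adjusted p = 1.23e-04).

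Dcn (ENSMUSG00000019929), the gene of decorin, stood at 296, 325 and 190 CPM in controls and at 95.7, 58.1 and 54.1 CPM with Gem-SU. The lowest control library still lay above the highest Gem-SU library. Its log2 fold change was -1.96 (SE 0.28, edgeR adjusted p = 8.53e-04), a fall of 3.90-fold.

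Periostin is a matricellular protein that binds collagen and integrins and marks activated fibroblasts. Postn (ENSMUSG00000027750) was the lowest gene of the set in PSC4, with between 127 and 160 counts in control libraries and between 25 and 45 with Gem-SU. In CPM this was 4.64, 4.01 and 4.13 against 1.04, 0.751 and 1.52. The groups did not overlap, and the log2 fold change was -1.95 (SE 0.35, edgeR adjusted p = 0.00239).

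Thrombospondins 1 and 2 are closely related trimeric glycoproteins that bind cell-surface CD47, and thrombospondin-1 is known for activating latent TGF-beta. Thbs2 (ENSMUSG00000023885) stood at 380, 496 and 587 CPM in controls and at 259, 196 and 213 CPM with Gem-SU. Every Gem-SU library lay below every control library, with a log2 fold change of -1.13 (SE 0.20, edgeR adjusted p = 0.00251).

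Thbs1 (ENSMUSG00000040152) was at 1547, 533 and 667 CPM in controls and at 940, 590 and 835 CPM with Gem-SU. The groups overlapped, and replicate 1 was the highest library in both. Its log2 fold change was -0.22 (SE 0.39, edgeR adjusted p = 0.672). Without PSC4 Control-SU replicate 1 the value turned to 0.39 (edgeR adjusted p = 0.250), so that its direction rests on that library. The ratio of Thbs1 to Thbs2 counts was 4.07, 1.07 and 1.14 in control libraries and 3.62, 3.01 and 3.92 with Gem-SU.

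SPARC, also called osteonectin, is a matricellular protein that binds calcium and collagen. Sparc (ENSMUSG00000018593) stood at 1556, 1284 and 1311 CPM in controls and at 1008, 521 and 530 CPM with Gem-SU. Gem-SU replicate 1 lay between the controls and the other two Gem-SU libraries. The log2 fold change was -1.01 (SE 0.28, edgeR adjusted p = 0.0172). The call was lost without PSC4 Gem-SU replicate 2, where the log2 fold change was -0.84 (edgeR adjusted p = 0.0789), and without replicate 3, where it was -0.85 (edgeR adjusted p = 0.0612).

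The structural glycoproteins Fn1 (ENSMUSG00000026193), the gene of fibronectin, and Fbln2 (ENSMUSG00000064080), the gene of fibulin-2, were abundant and did not pass. Fn1 stood at 1545, 2319 and 2149 CPM in controls and at 1962, 2433 and 2727 CPM with Gem-SU. Its log2 fold change was 0.24 (SE 0.23, edgeR adjusted p = 0.408). Fbln2 stood at 856, 781 and 1128 CPM in controls and at 825, 856 and 942 CPM with Gem-SU, with a log2 fold change of -0.08 (SE 0.19, edgeR adjusted p = 0.768). Both genes overlapped between groups. The authors' deposited table gave the same calls for the 9 genes at that threshold, with log2 fold changes between -2.10 for Emilin2 and 1.46 for Tnc.

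The 12 stellate and fibroblast markers moved in the same comparison. They summed to between 8478 and 9156 CPM in PSC4 controls and between 2667 and 4013 CPM with Gem-SU, and 9 of the 12 fell while 0 rose, where 22% of all genes tested fell. Of the other 3, Acta2, named after its values were seen, was at a log2 fold change of 0.78 (edgeR adjusted p = 0.0538), and was called higher by DESeq2 (adjusted p = 0.0227) and with the replicate block (edgeR adjusted p = 0.00567). Of the 4 epithelial markers tested in PSC4, 1 rose and 1 fell, beside 24.3% and 22% of all genes. Krt19 rose 2.59-fold, from between 74 and 123 counts to between 215 and 349. Muc1 fell 1.73-fold, from between 328 and 388 counts to between 182 and 281. Of the 2 endothelial markers tested in PSC4, 1 was called higher, Kdr, beside 24.3% of all genes. Kdr had between 7 and 17 counts in controls and between 59 and 74 with Gem-SU, 5.96-fold more. It passed the count filter only through its Gem-SU libraries, the group where it was higher, and its values are a description. The part of any of these markers in the changes of the matrix genes was not tested. In bulk RNA of a culture, fewer cells of a type and less RNA per cell cannot be told apart. All 9 genes together took between 0.568% and 0.652% of counts in control libraries and between 0.509% and 0.562% with Gem-SU. Fn1 made up between 24.0% and 38.7% of these counts in controls and between 36.3% and 48.8% with Gem-SU.

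Levels of different genes can be compared only per length, and CPM was therefore divided by the length of the merged coding-transcript exons in kilobases (CPM per kb). In PSC4 controls the order was Sparc at 509, Fn1 at 236, Fbln2 at 192, Thbs1 at 157, Dcn at 139, Thbs2 at 82.7, Emilin2 at 35.2, Tnc at 13.1 and Postn at 1.29 CPM per kb. Neighbours from Fn1 down to Thbs2 overlapped between libraries, whereas Sparc lay above Fn1 and each of Emilin2, Tnc and Postn below the gene before it in every library. With Gem-SU the order was Fn1 at 280, Sparc at 252, Fbln2 at 183, Thbs1 at 135, Thbs2 at 37.8, Tnc at 37.0, Dcn at 35.7, Emilin2 at 9.03 and Postn at 0.336 CPM per kb. Sparc then overlapped with both Fn1 and Fbln2, and Tnc lay above Emilin2 in every library and within the ranges of Thbs2 and Dcn.

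**Figure D2:**
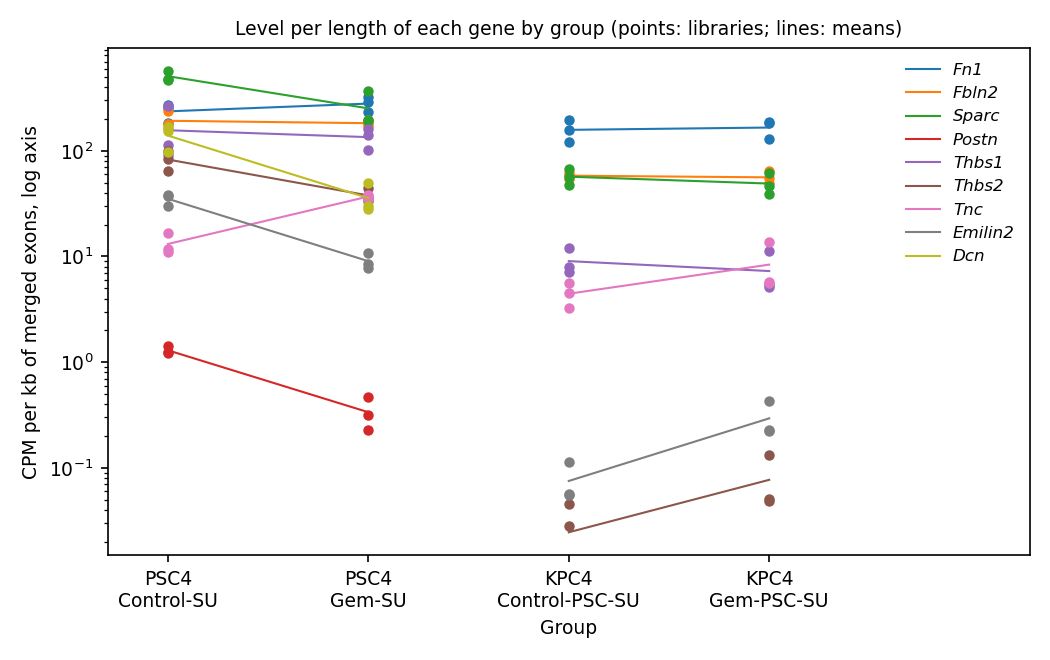
Level per kilobase of merged exons of each gene in the 4 groups on a log axis, with points for libraries and lines joining the group means within a line (1 KPC4 library without Thbs2 counts is not drawn). Tnc climbs from 13.1 to 37.0 CPM per kb in PSC4 and meets Thbs2 and Dcn, which descend to 37.8 and 35.7.

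The promoters of genes that moved in PSC4 are shown for Tnc, which rose, and for Emilin2, Thbs2 and Postn, which fell, so that the start regions of genes moving in opposite directions can be read side by side. Each is the 250 bases before a RefSeq transcript start on GRCm38.p6, a build other than the GRCm39 that the submitters' processing notes name, and is written 5′ to 3′ on the gene's strand, with the last base next to the start. Where RefSeq had several starts, the most downstream one whose window held no annotated exon base of these genes was taken. Sparc and Dcn also fell but are not shown, as the only window of Sparc held 238 exon bases and Dcn had no window. An upstream start of Emilin2, whose window held 178 exon bases, is not shown either. Capitals mark matches on either strand to 5 motifs. The TATA box was searched as TATAAA, the AP-1 site as TGANTCA, the TEAD site as GGAATG, the GC box as GGGCGG and the CCAAT box by the letters of its name.
Tnc, chr4:64047016-64047265, - strand: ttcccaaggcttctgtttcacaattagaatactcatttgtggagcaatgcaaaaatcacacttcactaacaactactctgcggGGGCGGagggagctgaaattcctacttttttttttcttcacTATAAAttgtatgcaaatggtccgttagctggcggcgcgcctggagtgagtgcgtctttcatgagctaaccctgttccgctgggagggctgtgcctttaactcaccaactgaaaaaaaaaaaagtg
Emilin2, chr17:71311012-71311261, - strand: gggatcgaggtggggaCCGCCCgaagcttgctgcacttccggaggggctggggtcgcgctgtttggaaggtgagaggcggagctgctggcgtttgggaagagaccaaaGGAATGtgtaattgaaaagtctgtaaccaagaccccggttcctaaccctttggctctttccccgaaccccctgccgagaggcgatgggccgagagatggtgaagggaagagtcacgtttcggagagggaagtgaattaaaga
Thbs2, chr17:14694263-14694512, - strand: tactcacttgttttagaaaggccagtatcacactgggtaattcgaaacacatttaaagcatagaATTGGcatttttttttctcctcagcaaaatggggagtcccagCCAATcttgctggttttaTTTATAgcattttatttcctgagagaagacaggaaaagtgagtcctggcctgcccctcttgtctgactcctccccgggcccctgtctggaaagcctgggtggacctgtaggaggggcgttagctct
Postn, chr3:54360857-54361106, + strand: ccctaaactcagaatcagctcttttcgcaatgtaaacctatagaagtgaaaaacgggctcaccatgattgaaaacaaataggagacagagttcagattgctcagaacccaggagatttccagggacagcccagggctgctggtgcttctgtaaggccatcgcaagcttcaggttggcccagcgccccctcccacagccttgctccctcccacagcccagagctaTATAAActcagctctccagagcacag
The TATA box letters occurred in 12.4% of all 32851 such windows of the RefSeq table, and here in those of Tnc, Thbs2 and Postn. In Postn it lay 26 to 21 bases before the start on the gene's strand, in Tnc 126 to 121 bases before the start shown, and in Thbs2 at the same distance on the opposite strand. Another RefSeq start of Tnc, whose window held 79 exon bases, is not shown, and the TATA box letters lay 205 to 200 bases before it. Close to that other start its window also held the letters tatataag, which the search for TATAAA does not match. The GC box, found in 32.7% of all windows, occurred in those of Tnc and Emilin2, and the TEAD site, found in 12.6%, in that of Emilin2 but not in the other 3 shown. The CCAAT box, found in 33.8% of windows, matched 2 times in Thbs2. The AP-1 site, found in 6.75% of windows, was not among the letters of these 4. No match overlapped another. Matches are descriptions of letters in the window.

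The second comparison asked whether tumour cells kept in medium of stellate cells pre-exposed to Gem-SU differed in the same genes from those kept in medium of stellate cells pre-exposed to Control-SU. No gene of the set passed in KPC4, where 0 of 13236 genes tested (0%) passed over the whole table in that edgeR test. At an unadjusted p under 0.05 there were 2251 genes (17%), among them Tnc and Emilin2, both higher. Replicate numbers paired the KPC4 libraries, and under the replicate block, a term for that number, 1171 genes passed (8.85%), 0 of them from the set. DESeq2 called 823 genes (6.22%), of which Emilin2 was the only one of the set. The count of genes also rested on single libraries, being 1129 without KPC4 Gem-PSC-SU replicate 1 and 174 without KPC4 Control-PSC-SU replicate 2, and 0 genes of the set passed in either case. The median log2 fold change was 0.01 over the 6 genes tested and -0.0194 over all.

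**Figure D3:**
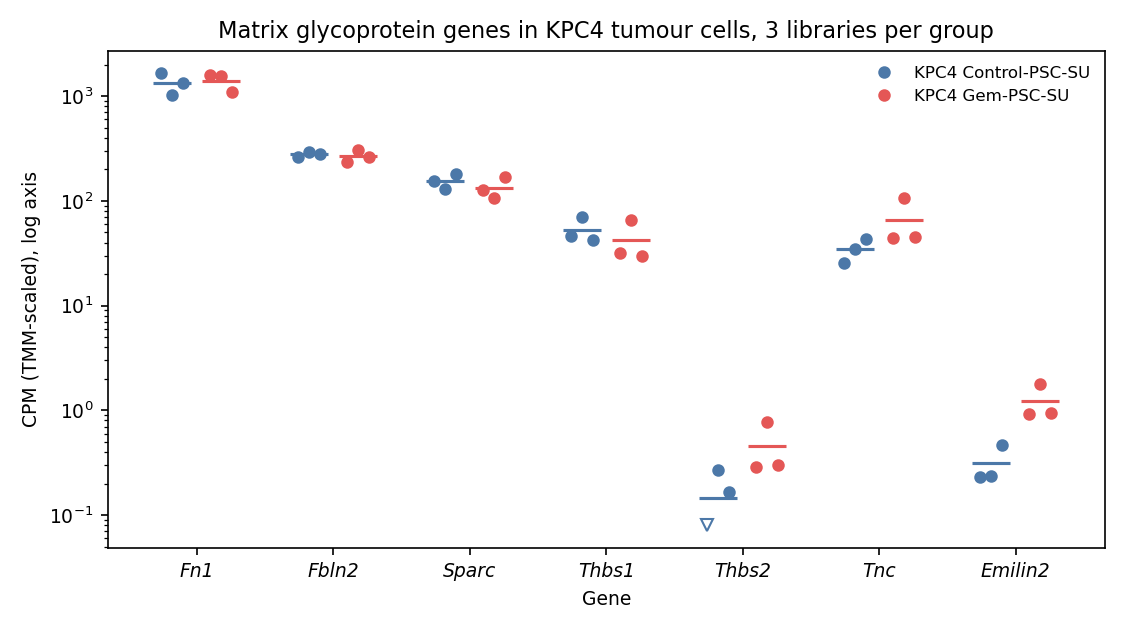
CPM of the 7 genes in KPC4 on a log axis, with a point per library and a line at the group mean (the open triangle is a Thbs2 library with 0 counts). Tnc, Emilin2 and Thbs2 are higher in all Gem-PSC-SU libraries, with Gem-PSC-SU replicate 2 the highest of each at 107, 1.80 and 0.775 CPM, and the other 4 genes overlap.

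In KPC4, Tnc stood at 25.3, 34.9 and 43.4 CPM with Control-PSC-SU and at 43.8, 107 and 44.9 CPM with Gem-PSC-SU. The groups did not overlap, but Gem-PSC-SU replicates 1 and 3 lay just above the highest control, and replicate 2 stood apart. The log2 fold change was 0.92 (SE 0.37, edgeR adjusted p = 0.261), and 0.36 (edgeR adjusted p = 0.620) without Gem-PSC-SU replicate 2. With the replicate block it was 0.82 by edgeR (adjusted p = 0.114), which did not pass, and 0.83 by DESeq2 (adjusted p = 0.0116), which did.

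Emilin2 was near the detection limit, with 8, 8 and 14 counts in KPC4 controls and 26, 58 and 25 counts with Gem-PSC-SU. It passed the count filter of that line only through its Gem-PSC-SU libraries, the group where it was higher. Its values in KPC4 are therefore given as a description. All Gem-PSC-SU libraries lay above the controls, at 0.926, 1.80 and 0.942 CPM against 0.231, 0.237 and 0.469 CPM. The log2 fold change was 1.97 (SE 0.59, edgeR adjusted p = 0.170, or 0.0866 with the block, and DESeq2 adjusted p = 0.0491). The authors' deposited table lists a log2 fold change of 3.92 with an adjusted p of 2.04e-04 for this gene. The deposited counts do not show a change of that size, and the reason was not tested.

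Thbs2 had 0, 9 and 5 counts in KPC4 controls and 8, 25 and 8 with Gem-PSC-SU, too few to enter the test. The groups did not overlap in CPM but did in counts. Of the 6 genes tested in KPC4, 2 had groups that did not overlap, Tnc and Emilin2, both higher with Gem-PSC-SU, as were 11.8% of all genes tested out of 22.8% without overlap in either direction. Emilin2 was among the genes tested only because its Gem-PSC-SU libraries passed the filter.

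The remaining 4 genes overlapped between groups and did not pass, with or without the replicate block. Their log2 fold changes were 0.07 for Fn1, -0.05 for Fbln2, -0.22 for Sparc and -0.31 for Thbs1, with standard errors between 0.17 and 0.34 and edgeR adjusted p-values from 0.634 to 0.895. Fn1 was at 1649, 1033 and 1336 CPM in controls and at 1574, 1563 and 1089 CPM with Gem-PSC-SU. Thbs1 was at 46.5, 70.1 and 42.1 CPM in controls and at 31.6, 66.2 and 30.0 CPM with Gem-PSC-SU. In both groups replicate 2 was the highest for Thbs1 and replicate 3 the highest for Sparc, which ranged from 106 to 182 CPM. Sparc and Thbs1 were both lower with Gem-PSC-SU within each of the 3 replicate numbers. With the block their log2 fold changes were -0.23 for Sparc (edgeR adjusted p = 0.253) and -0.37 for Thbs1 (edgeR adjusted p = 0.151).

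**Figure D4:**
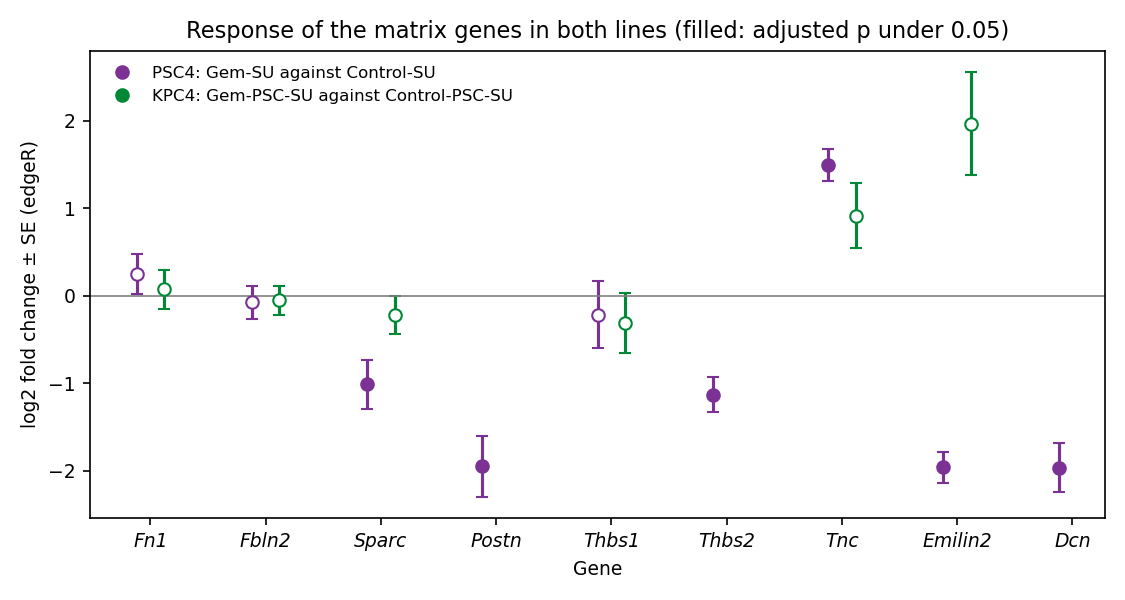
Log2 fold change with its standard error for each gene in PSC4 (purple) and KPC4 (green), filled where the edgeR adjusted p was under 0.05. In PSC4 1 value lies above 0 and 5 below among the filled points, while in KPC4 no point is filled, and Emilin2 lies at -1.96 in PSC4 and 1.97 in KPC4.

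The difference of the responses was then tested as an interaction in one fit of all 12 libraries, in which cell line and transfer step cannot be told apart. Of the 6 genes that passed the count filter in both lines, 1 passed this test, Emilin2, against 9.85% of the 13632 genes tested (4.75% higher and 5.1% lower in PSC4). Emilin2 also passed under DESeq2, as did 15.8% of all genes. The log2 response of Emilin2 in PSC4 was lower than that in KPC4 by a difference of -3.995 with a standard error of 0.42 (edgeR adjusted p = 3.14e-04). Its KPC4 counts, from 8 to 58, passed the filter of that line only through the Gem-PSC-SU libraries. The difference of Emilin2 is therefore given as a description. Thbs2 entered this fit through its PSC4 libraries alone, since its KPC4 counts were below the filter of that line. Its difference was -2.85 with a standard error of 0.71 (edgeR adjusted p = 0.0250), and as it rests on KPC4 libraries with 0 to 25 counts it is given as a description.

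The Thbs2 call was lost when PSC4 Control-SU replicate 3, PSC4 Gem-SU replicate 2, KPC4 Control-PSC-SU replicate 3 or KPC4 Gem-PSC-SU replicate 2 was left out, with edgeR adjusted p-values of 0.0548, 0.0595, 0.0564 and 0.0729. For Sparc the difference was -0.85 with a standard error of 0.37 (edgeR adjusted p = 0.168). Under the replicate block, where 21.9% of genes passed, it was -0.90 (edgeR adjusted p = 0.0128), and without PSC4 Gem-SU replicate 1 it was -1.24 (edgeR adjusted p = 0.0190). For Tnc it was 0.53 with a standard error of 0.43 (edgeR adjusted p = 0.470), and 1.06 (edgeR adjusted p = 0.0389) without KPC4 Gem-PSC-SU replicate 2. The differences of Fn1, Fbln2 and Thbs1 did not pass. Without PSC4 Gem-SU replicate 2 the number of genes passing over the whole table was 610.

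The levels of the genes in the vehicle arms of both lines were set side by side, bearing in mind that these arms also received different supernatants. Of the 6 genes that passed the count filter in both lines, 5 were higher in PSC4 controls than in KPC4 controls, and their groups did not overlap. Of all genes tested 42.9% passed, 22.3% higher and 20.6% lower, and 29.1% lay higher in PSC4 without overlap. Thbs2 had between 13121 and 18052 counts in PSC4 controls and at most 9 in KPC4 controls, and Emilin2 between 4287 and 4968 against at most 14. Thbs1 was 17.2-fold higher in PSC4 (log2 4.11, standard error 0.45), Sparc 8.89-fold (3.15, standard error 0.28), Fbln2 3.29-fold (1.72, standard error 0.18) and Tnc 2.94-fold (1.56, standard error 0.31), with edgeR adjusted p-values of at most 0.00115.

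Fibronectin was the exception, with a log2 difference of 0.57 and a standard error of 0.23 that missed the threshold (edgeR adjusted p = 0.0594) and overlapping groups. It passed when any of 4 libraries was left out, for instance without PSC4 Control-SU replicate 1 (0.73, edgeR adjusted p = 0.0297). Per length the order in KPC4 controls was Fn1 at 158, Fbln2 at 58.2, Sparc at 56.9, Thbs1 at 9.04, Tnc at 4.44, Emilin2 at 0.0751 and Thbs2 at 0.0246 CPM per kb. Fbln2 and Sparc overlapped, while Fbln2, Thbs1, Tnc, Emilin2 and Thbs2 each lay below the gene before it in every control library. Fn1 alone made up between 66.2% and 78.2% of the set's counts in KPC4 libraries.

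Further genes of the same matrix, its receptors and its TGF-beta control were read from 4 lists. In PSC4, 4 of 32 other matricellular proteins and glycoproteins rose and 17 fell, with a median log2 fold change of -0.78. Over all genes tested in PSC4, 24.3% rose and 22% fell, against which this and the next 3 counts are to be read. Smoc2, which rose, had 2 to 6 counts in controls. Sparcl1 and Mfap2, which fell, had 5 to 15 and 1 to 8 counts with Gem-SU. Each passed the count filter only through the group where it was higher, and was named after its values were seen. Their values are descriptions. Ccn1 and Ccn2, matricellular proteins of the CCN family known as targets of YAP, rose, Ccn1 from a mean of 178 CPM (SD 42.6) to 1142 CPM (SD 360) and Ccn2 from 27.4 CPM (SD 8.12) to 148 CPM (SD 23.9), with 3 libraries a group. Tgfbi, a secreted integrin ligand induced by TGF-beta, fell from 349 CPM ± 54.8 to 45.2 CPM ± 18.3. Their edgeR log2 fold changes were 2.68, 2.43 and -2.95. The CCN family did not move as one: of its other 3 listed genes, named after their values were seen, Ccn4 fell by 1.17 and Ccn5 by 3.09 on the log2 scale (edgeR adjusted p = 3.81e-04 and 0.0406), and Ccn3 was at -1.29 (edgeR adjusted p = 0.0624). With the replicate block Ccn5 did not pass (edgeR adjusted p = 0.0838) and Ccn3 did (edgeR adjusted p = 0.00229).

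Of 10 other matrix proteoglycans tested in PSC4, 6 fell and 0 rose, where 22% of all genes fell, with a median of -1.75. Those with the smallest p were all small leucine-rich proteoglycans of the kind that decorin belongs to. Ogn (osteoglycin) fell from 313 CPM ± 36.1 to 39.4 CPM ± 33.6, and Omd (osteomodulin) from 17.6 CPM ± 5.08 to 2.28 CPM ± 0.745 (SD, n = 3 each). Aspn (asporin) had between 40 and 68 counts in control libraries and between 0 and 4 with Gem-SU. Ecm2, named after its values were seen, had between 26 and 71 counts in controls and between 3 and 10 with Gem-SU. Aspn and Ecm2 passed the count filter only through the control libraries, where they were higher, and could enter the 6 only as falls. Their values are descriptions.

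Among 15 receptors tested in PSC4, 4 rose and 4 fell, a share near the 46.3% of all genes that passed, with a median of -0.18. Cd47, the receptor of thrombospondins, fell by 1.58 on the log2 scale, from 280 CPM ± 30.4 to 93.9 CPM ± 3.18. Cd44, a receptor of hyaluronan and other matrix molecules, rose by 1.51, and the syndecan Sdc4, which helps cells adhere to fibronectin, by 1.31. The 17 genes of TGF-beta signalling and matrix crosslinking gave 3 that rose and 7 that fell, beside 24.3% and 22% of all genes, with a median of -0.32. Smad7, an inhibitor of TGF-beta signalling, rose from a mean of 6.54 CPM (SD 1.82) to 43.1 CPM (SD 6.29), while the crosslinking enzymes Lox and Tgm2 fell by 2.55 and 1.98 on the log2 scale.

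**Figure D5:**
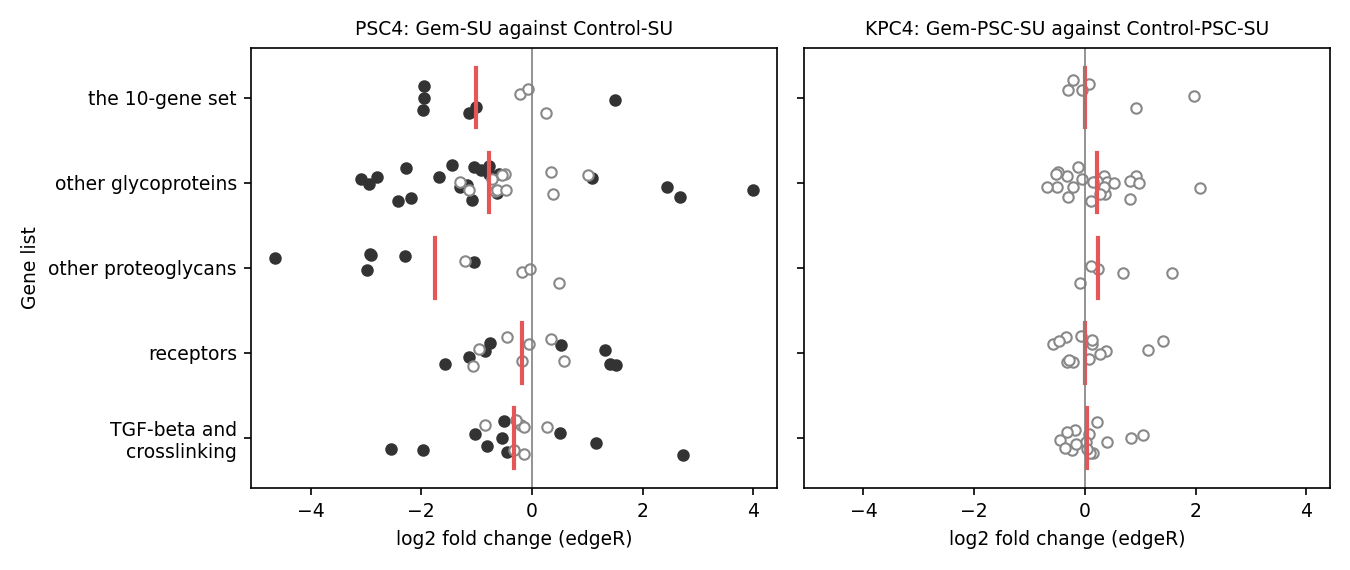
Log2 fold change of each tested gene of the 10-gene set and the 4 lists in PSC4 (left) and KPC4 (right), with filled points where the edgeR adjusted p was under 0.05 and a red bar at the list median. In PSC4 the medians run from -0.18 for receptors to -1.75 for other proteoglycans, and in KPC4 no point is filled and the medians lie between 0.01 and 0.24.

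In KPC4 no gene of these lists passed. The median log2 fold change was 0.21 over 23 other glycoproteins, 0.24 over 5 proteoglycans, 0.01 over 14 receptors and 0.04 over 15 genes of TGF-beta signalling and crosslinking. Under the replicate block 2, 0, 1 and 1 genes passed in these lists, namely Ccn3, Igfbp7, Itgb6 and Smad7. As 8.85% of all genes passed there, no list held a larger share of calls than the whole table in that fit. DESeq2 called 2, 0, 2 and 1 genes of these lists, namely Ccn3, Igfbp7, Itgb6, Sdc4 and Smad7, where it called 6.22% of all genes. In each list with a DESeq2 call the share was larger than that, on at most 2 genes. The glycoproteins with the smallest p in edgeR were Ccn3 at 2.08, Igfbp7 at -0.69 and Thbs3 at 0.39 on the log2 scale. The proteoglycans were Omd at 1.57, Bgn at 0.69 and Vcan at 0.24 (edgeR adjusted p = 0.331, 0.480 and 0.699). Groups of Bgn and Vcan overlapped. Omd had between 5 and 10 counts in controls and between 9 and 43 with Gem-PSC-SU. It passed the count filter only through the latter, where it was higher, and its value is a description. Among receptors they were Sdc4 at 1.14, Itgb6 at 1.41 and Itga5 at 0.39, and among TGF-beta genes Smad7 at 0.84, Tgfbr1 at -0.46 and Tgfb2 at 1.05. Sdc4 averaged 169 CPM ± 15.5 in controls and 373 CPM ± 137 with Gem-PSC-SU, and Smad7 21.4 CPM ± 2.20 and 38.1 CPM ± 4.45 (SD, n = 3 each).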

How the data were processed

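Total RNA of 12 samples was sequenced on an Illumina instrument, a NovaSeq X Plus, as the labels' protocols state. The authors deposited raw counts per Ensembl gene and library, which have a different total in each library. Per the submitters' processing notes, FastQC, Trim Galore 0.6.10, cutadapt 5.2, Salmon, R 4.5.1, DESeq2 and GRCm39 were used, with no role stated, so that the counts may be rounded estimates of reads shared among transcripts. The annotation is not given in the sources used here. The authors' deposited comparison tables give log2 fold changes with raw and adjusted p-values per symbol, per the file headers.

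Symbols came from GENCODE M21, which matched 16329 of 16386 PSC4 and 15265 of 15309 KPC4 identifiers. The smallest row total was 11 in KPC4 and 0 in PSC4. Libraries were grouped by title, and every per-sample column was used. Each line had its own fit in edgeR 4.0.16 and R 4.3.3 (filterByExpr, TMM, robust quasi-likelihood test), and the interaction and the comparison of vehicle arms in one fit of all 12 libraries over the 14360 genes in both tables, with Benjamini-Hochberg adjustment over all genes tested. Standard errors are the log2 fold change divided by the root of F. No pair of replicates was close enough to be one library deposited 2 times (smallest chi-square over its degrees of freedom 30.4). The depth makes counting error small beside the spread between replicates except for genes with few counts.

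The genes, lists and tests were chosen with earlier results of these data known. From each list the 3 genes with the smallest p in each line were named. Libraries with the same number deviated from their group means with correlations of 0.351, 0.436 and 0.211 in KPC4, all above 0.1, so that its numbers were taken as pairs on the strength of the values, and at 0.428, -0.0548 and 0.102 in PSC4, where they were not. A single data set per fit was simulated from these libraries, with changes set in a small share of genes. In that draw the share of false calls was above the nominal level for the KPC4 and interaction fits. A single draw does not give the rate of false calls in the data themselves. Alternatives were DESeq2 1.42.0, its size factors, other filters, the block, robust estimation off, one fit of all libraries and leaving out each library. Plain totals, a newer form of the quasi-likelihood fit and DESeq2 with the block were added after seeing the data.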

Additional observations from a re-analysis of the deposited data

Results flagged for a closer look

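The interaction test over all 12 libraries gave a different response in PSC4 and KPC4 for 2 genes. The difference (PSC4 minus KPC4, log2) was -3.995 for Emilin2, which fell in PSC4 and was higher in all 3 Gem-PSC-SU libraries of KPC4, and -2.85 for Thbs2, whose KPC4 libraries had at most 25 counts. Thbs2 passed the count filter of that fit only through its PSC4 libraries. Emilin2 passed the filter of KPC4 only through its Gem-PSC-SU libraries, and the values of both genes are descriptions. For both genes the KPC4 response itself did not pass or was not tested.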

How the results depend on the processing

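Of 513 refits of single matrix genes, 475 kept their direction and their side of the threshold, 6 lost and 11 gained the threshold, and 21 changed sign, all of the latter for Fn1, Fbln2 or Thbs1, which did not pass in those comparisons. The one sign change outside fits that leave out a library was the Fbln2 difference between lines, 0.021 with plain library totals. Leaving out single libraries gave a range from -0.53 to 0.39 for Thbs1 and from -0.21 to 0.057 for Fbln2 in PSC4, and from -0.071 to 0.25 for Fn1 and from -0.16 to 0.032 for Fbln2 in KPC4. For the difference between lines it gave -0.042 to 0.27 for Fn1, -0.21 to 0.67 for Thbs1 and -0.17 to 0.12 for Fbln2.

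Across all genes, leaving out a library gave from 4061 to 6826 calls in PSC4, from 0 to 1129 in KPC4 and from 610 to 1993 for the difference between lines, and from 1 to 3 of the set for the latter. In KPC4, against 0 calls in the reported fit, there were 823 calls under DESeq2, 1171 with the replicate block, 2184 with both, 610 in a single fit of all libraries and 1 with plain totals. Of the set, 1 gene passed in KPC4 under DESeq2 (Emilin2), 1 in the single fit (Emilin2, edgeR adjusted p = 0.0115) and 1 under DESeq2 with the block (Tnc, DESeq2 adjusted p = 0.0116). For the difference between lines, against 1343 calls, there were 2148 under DESeq2, 2988 with the replicate block and 3480 with both, and 0 of the set remained at a minimum of 10 counts in every library, a filter that leaves Emilin2 and Thbs2 out. Plain totals turned its split from 648 higher and 695 lower to 786 and 529. In PSC4, whose numbers were not taken as pairs, 7266 genes (54.4%) passed with the block, the same 6 of the set among them. The cause of the other moves was not tested. With at most 58 counts in any KPC4 library for Emilin2 and 25 for Thbs2, depth limits what can be said of both there.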
